A study of Homo sapiens with 8 samples.

Results

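L1CAM knockdown was examined in H2030-BrM cells grown in the dish, before any contact with brain tissue. The comparison uses 4 of the 8 libraries of the study, chosen by their labels: 2 from cells with L1CAM shRNA (shL1CAM_dish) and 2 from cells with a control shRNA against luciferase (shControl_dish), all collected at 0 h. H2030-BrM is a brain-metastatic derivative of H2030, a human lung adenocarcinoma line. All the cells, controls included, carried EGFP-Rpl10a, a ribosomal protein fused to EGFP from a lentiviral vector with a hygromycin marker (pLVX-EGFP-Rpl10a-IRES-hygro), and dish cells grew in RPMI with FBS. Ribosomes were recovered with an antibody against EGFP and the RNA bound to them was sequenced, so each value is the amount of a transcript on tagged ribosomes. A change in transcript amount and a change in ribosome loading cannot be told apart, and in such bulk samples neither can fewer cells of a type and less RNA per cell. The other 4 libraries, shControl_slice and shL1CAM_slice, came from the same kinds of cells after 48 h on a mouse brain slice.

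L1CAM is a transmembrane adhesion molecule of the immunoglobulin superfamily, best known from growing axons, where it binds itself, integrins and related neural adhesion molecules. Its cytoplasmic tail couples to ankyrin and to the ezrin, radixin and moesin linkers, and membrane proteases such as ADAM10 can release its extracellular part. Many carcinomas express it, and in brain metastasis models it is known for holding tumour cells along blood vessels.

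L1CAM shRNA went with lower L1CAM in the dish. The normalized count, which is the number of reads divided by a size factor for the library, was 482 and 440 in shControl_dish and 126 and 88.3 in shL1CAM_dish. Both knockdown libraries lay below both controls, and the log2 fold change came to -2.11 ± 0.21 (SE; limma adjusted p = 0.00865). RPL10A, the human gene of the ribosomal protein used as the tag carrier, read 6955 and 7774 in the controls and 6860 and 6372 with L1CAM shRNA (log2 fold change -0.15 ± 0.19, limma adjusted p = 0.886). How many of these reads came from the EGFP-Rpl10a transgene cannot be told, so the level of the tag was not tested. The labels give neither the sequence nor the number of hairpins, so effects of losing L1CAM and other effects of the hairpin cannot be told apart.

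Dish libraries held 15076028 to 16734651 reads assigned to genes, and the limit that 0 reads leave to a gene (3 reads) came to a normalized count of 2.75 to 3.01. The slice libraries enter the test because all 4 groups share an estimate of each gene's spread. Their 2 shL1CAM_slice libraries differed most from each other: over all genes the log2 replicate difference had an SD of 0.637 there, against 0.218 to 0.303 in the other 3 groups. Counts of genes are therefore also given from the 4 dish libraries alone and without replicate 2 of shL1CAM_slice. The dish cells carried KRT8 (4288 to 5414) and KRT18 (4184 to 6002), keratins of simple epithelia. Of the other 6 epithelial markers checked, MUC1 was at 258 to 317, EPCAM at 78.3 to 169, CDH1 at 21.1 to 32.1, KRT7 at 5.50 to 14.1, CLDN4 at 5.66 to 9.16 and KRT19 at 0 to 1.00, no more than 1 read in any dish library. Among markers of other cells, the summed level of 4 astrocyte genes was 3.91 and 4.72 in the controls and 5.50 and 3.01 with L1CAM shRNA, with ALDH1L1 at 0 in every dish library. The 3 endothelial genes summed to 10.8 and 6.60 against 4.58 and 7.03. The 5 fibroblast genes summed to 339 and 391 against 574 and 589, with THY1 at 0. Of that sum COL3A1 made up 322 and 378 against 529 and 551. The 4 blood cell genes summed to 712 and 857 against 728 and 475, nearly all of it CD68, with CD3E at 0. The 6 neuronal genes summed to 3720 and 3462 against 3651 and 3641, most of it MAP2.

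The question was which ribosome-bound transcripts differ between cells with L1CAM shRNA, which kept part of their L1CAM, and cells with control shRNA in ordinary culture. The largest decreases included the inflammatory cytokine IL18, the membrane protein plasmolipin (PLLP), netrin-4 (NTN4), the synaptic vesicle priming factor UNC13A and the CDK inhibitor p21 (CDKN1A). The increases included N-cadherin (CDH2), the retinol uptake receptor STRA6 and the secreted matrix protein cochlin (COCH). Of 13010 genes tested, 40 (0.307%) passed an adjusted p of 0.05 in limma, 12 higher with L1CAM shRNA (0.0922%) and 28 lower (0.215%). A factor of 2 was exceeded by 12 of the increases and 27 of the decreases. With the 4 dish libraries alone 824 genes passed (6.33%), 298 higher (2.29%) and 526 lower (4.04%), of which 82 and 104 differed by more than a factor of 2. Without replicate 2 of shL1CAM_slice 1437 passed, 584 higher (4.49%) and 853 lower (6.56%). All 40 genes passed in both of these fits. Without replicate 1 of shL1CAM_slice instead, 1436 passed, and without either shControl_slice library 8 did. With any 1 dish library left out limma called 0 genes, L1CAM included, with 547 to 955 at an unadjusted p under 0.05, and edgeR's quasi-likelihood test on all 8 libraries called 77. All 40 kept their sign in each of those fits.

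**Figure D1:**
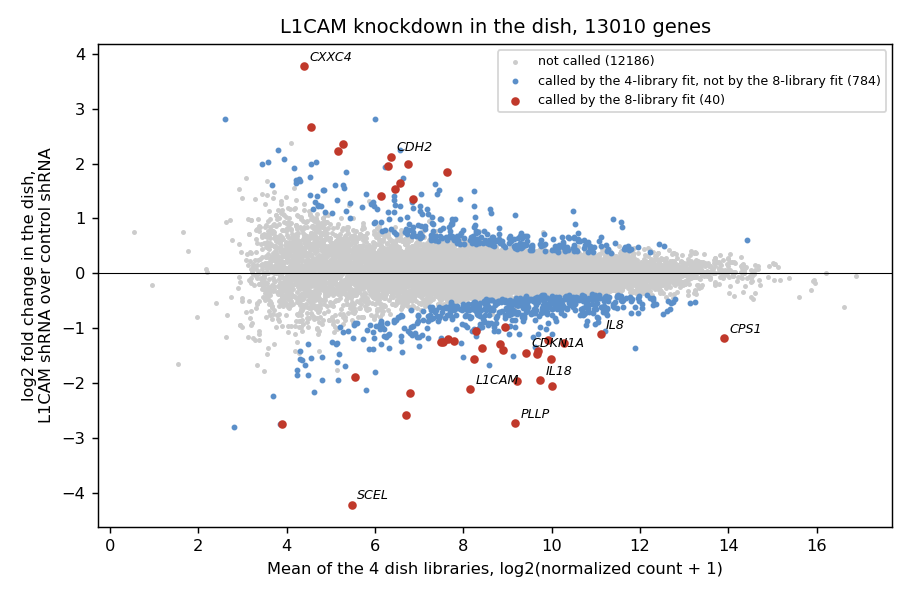
Each point is 1 of the 13010 genes tested, with the mean of the 4 dish libraries on the horizontal axis as log2(normalized count + 1) and the log2 fold change of L1CAM over control shRNA on the vertical axis. Red points are the 40 genes called by the fit of all 8 libraries, blue points are further genes called by the 4 dish libraries alone, and most named red points lie well below 0, with CDH2 and CXXC4 above it.

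Among the 28 decreases, PLLP, a membrane protein of myelin and epithelia, had normalized counts of 1014 and 994 in the controls and 167 and 134 with L1CAM shRNA. On the log2 scale this was -2.74 ± 0.23 (limma adjusted p = 0.00594). IL18 stood at 1364 and 1369 against 354 and 349 (log2 fold change -1.96 ± 0.16, limma adjusted p = 0.00594). In both genes the replicates lay close together beside the distance between groups. UNC13A, which prepares vesicles for release at synapses, had 1717 and 1601 against 414 and 385 (-2.05 ± 0.19, limma adjusted p = 0.00751). NTN4, a secreted relative of laminins found in basement membranes, had 994 and 897 against 254 and 229 (-1.97 ± 0.18, limma adjusted p = 0.00751). The adhesion G protein-coupled receptor GPR64 fell from 161 and 193 to 31.1 and 26.1 (-2.59 ± 0.27, limma adjusted p = 0.011). That no control library overlapped a knockdown library was a condition for naming these genes, and 51.3% of all genes tested met it in either direction.

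Regulators of growth and the matrix were among the other decreases. CDKN1A read 1092 and 904 in the controls and 332 and 397 with L1CAM shRNA (log2 fold change -1.45 ± 0.16, limma adjusted p = 0.017). TGM2, the enzyme transglutaminase 2 that crosslinks proteins, read 1273 and 1133 against 409 and 495 (-1.42 ± 0.16, limma adjusted p = 0.017). MED12, a subunit of the kinase module of the Mediator complex, read 453 and 450 against 156 and 150 (-1.56 ± 0.19, limma adjusted p = 0.0183). In these 3 genes no library of one group overlapped the other, which was again a condition for naming them. UBASH3B, a phosphatase that acts on tyrosine kinase signalling, read 1586 and 1429 against 457 and 568 (-1.56 ± 0.22, limma adjusted p = 0.0416). LAMB3, the beta chain of laminin-332, read 1193 and 1195 against 529 and 346 (-1.48 ± 0.21, limma adjusted p = 0.0416). The 2 knockdown libraries of LAMB3 lay further apart than its controls, and both were below them, as the naming rule required.

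The 12 increases included genes for adhesion and secreted proteins. CDH2, which joins cells of neural and mesenchymal tissues, had 28.4 and 31.1 in the controls and 144 and 122 with L1CAM shRNA (log2 fold change 2.12 ± 0.28, limma adjusted p = 0.0283). STRA6 had 37.2 and 25.5 against 141 and 105 (1.95 ± 0.31, limma adjusted p = 0.0499). COCH had 65.5 and 108 against 353 and 260 (1.84 ± 0.28, limma adjusted p = 0.0444). In all 3 the lowest knockdown library was above the highest control, which the naming rule required. The calcium-binding protein S100A16 had 43.0 and 47.2 against 130 and 158 (1.65 ± 0.25, limma adjusted p = 0.0444). The secreted glutathione peroxidase GPX3 had 42.1 and 45.3 against 110 and 150 (1.53 ± 0.24, limma adjusted p = 0.0499). C15orf52 had 41.1 and 34.0 against 104 and 98.4, and the neuronal splicing factor NOVA1 had 65.5 and 64.1 against 164 and 170, log2 fold changes of 1.41 and 1.35. The adjusted p of GPX3, STRA6 and C15orf52 was 0.0499 in each, at the edge of the threshold.

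**Figure D2:**
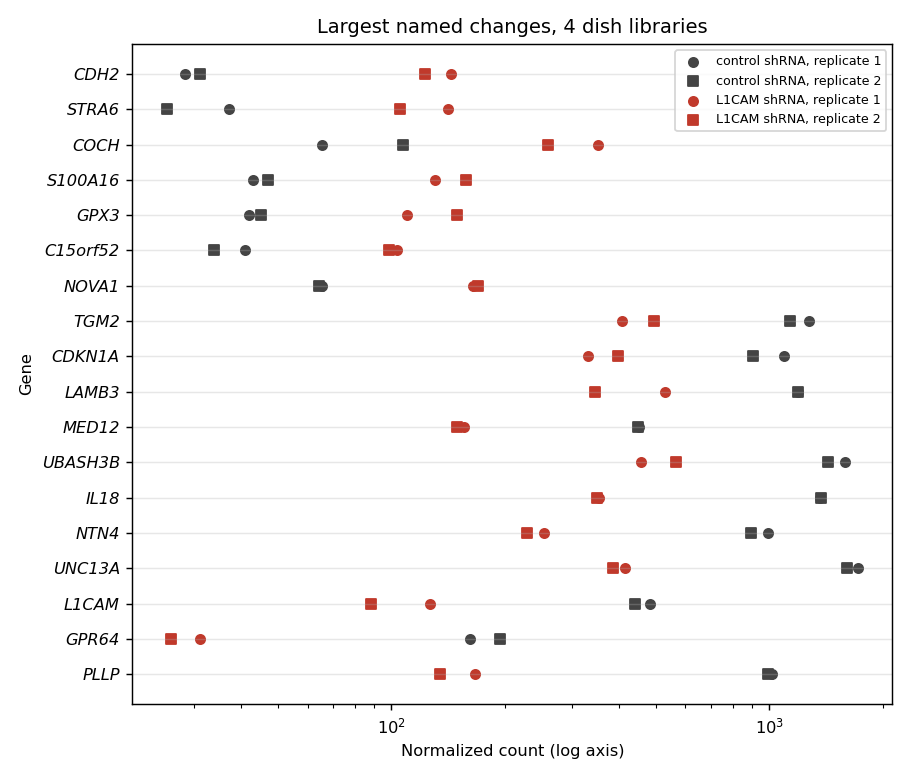
Normalized counts of 11 named decreases and 7 named increases in each dish library, on a log axis, with 1 gene per line, control shRNA in grey, L1CAM shRNA in red and symbols for the replicates. In every line the 2 grey points lie on one side of the 2 red points, which was a condition for naming all of them but L1CAM.

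In 2 called genes a group held 3 reads or fewer in each library. CXXC4, an inhibitor of Wnt signalling that binds Dishevelled, had 3 and 1 reads in the controls and normalized counts of 28.4 and 48.2 with L1CAM shRNA. The ratio of group sums was 19.7 (95% exact binomial interval 7.40 to 74.1, counting error only). The secreted signal WNT7A went the other way, from 24.5 and 25.5 in the controls to 3 reads in each knockdown library, a ratio of control over knockdown of 8.69 (3.73 to 24.8). Sciellin (SCEL), a protein of the cornified envelope, fell from 73.4 and 92.4 to 1.83 and 6.02, a ratio of 21.7 (10.8 to 51.0), and was chosen here after its values were seen.

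Inflammatory cytokines were the list with the lowest median among the signalling lists described. Of 20 genes of the NF-kB and cytokine list, 2 fell, 0 rose, and 18 did not pass in limma. IL18 is given above, and the neutrophil attractant IL8 had normalized counts of 2986 and 3055 against 1286 and 1520 (-1.11 ± 0.14, limma adjusted p = 0.0261). In 12 of the 20 both knockdown libraries lay below both controls and in 2 above, where 25.6% and 25.7% of all genes tested did so (51.3% in either direction). The median log2 fold change was -0.46 and that of all genes tested was 0.01. With the dish libraries alone 10 passed as lower and 2 as higher (4.04% and 2.29% of all genes tested). Without replicate 2 of shL1CAM_slice 11 and 2 did (6.56% and 4.49% of all genes tested). CXCL2, another neutrophil attractant, had 245 and 250 against 86.1 and 122 (-1.26, limma adjusted p = 0.0538). IL15, a cytokine for lymphocytes, lay the other way with 43.0 and 60.4 against 115 and 129 (1.25, limma adjusted p = 0.0538). The largest rise of the list was that of IL32 (1.55, named after its value was seen), which did not pass over 8 libraries. Of the 20 genes 15 had a negative and 5 a positive log2 fold change.

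IL8 and its relatives CXCL1, CXCL2 and CXCL3 lie in a cluster on chromosome 4 and are known targets of NF-kB, so the stretch of each promoter nearest the start site is shown. Beside IL8 and CXCL2, CXCL1 had 234 and 254 against 112 and 169, and CXCL3 had 68.5 and 43.4 against 26.6 and 25.1. Their log2 fold changes were -0.82 and -1.05 (limma adjusted p = 0.234 and 0.325, named after their values were seen), and CXCL1, CXCL2 and CXCL3 are near-identical copies whose reads the counting could split. The letters are from RefSeq on GRCh38.p14, 120 bases 5′ to 3′ on the gene's strand and ending at the base before the start site. Capitals mark the letters GGAATTTCC, the core of an NF-kB site, searched on both strands.
CXCL8 (IL8), chr4:73740449-73740568 (plus strand): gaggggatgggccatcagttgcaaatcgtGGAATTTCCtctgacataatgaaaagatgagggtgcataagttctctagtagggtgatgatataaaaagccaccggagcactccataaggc
CXCL1, chr4:73869273-73869392 (plus strand): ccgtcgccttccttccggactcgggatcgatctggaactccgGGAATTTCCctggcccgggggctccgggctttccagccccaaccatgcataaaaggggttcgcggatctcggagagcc
CXCL2, chr4:74099196-74099315 (minus strand): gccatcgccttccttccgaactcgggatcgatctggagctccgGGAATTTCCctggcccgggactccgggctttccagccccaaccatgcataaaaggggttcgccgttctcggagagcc
CXCL3, chr4:74038690-74038809 (minus strand): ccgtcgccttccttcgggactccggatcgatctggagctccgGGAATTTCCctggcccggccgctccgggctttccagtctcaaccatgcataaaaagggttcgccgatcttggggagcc
The 9 letters were in all 4 windows, their 3′ end 68 to 82 bases before the start. Over 250 bases before the start they occurred in 117 of 27305 promoters (0.428%). Of the 15 list members with a promoter in the table, 7 held them: NFKBIA, NFKB1, ICAM1, CXCL1, CXCL2, CXCL3 and IL8. Of these NFKBIA, NFKB1 and ICAM1 had log2 fold changes of -0.02, 0.05 and 0.24. Members without the letters included CCL20 (-1.09), IL6 (-0.87), TNFAIP3 (-0.85) and IL32 (1.55). The list was drawn up from NF-kB and cytokine genes, so its share of matches cannot be weighed against that of all promoters. A match is a description of the letters and not of a bound site.

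Immediate early genes, which cells transcribe within minutes of growth factor stimulation, lay low as a group, and 1 fell. That gene, the transcription factor EGR1, had 658 and 655 in the controls and 352 and 317 with L1CAM shRNA (log2 fold change -0.97 ± 0.15, limma adjusted p = 0.0444). Of the 18 tested, 17 had a negative log2 fold change, 11 lay below the controls without overlap and 0 above (25.6% and 25.7% of all genes tested), and the median was -0.31. In the dish libraries alone 6 passed as lower and 0 as higher (4.04% and 2.29% of all genes tested). HBEGF, a ligand of the EGF receptor, had 433 and 362 against 172 and 209 (-1.06, limma adjusted p = 0.0538). FOSB and ATF3, both transcription factors, had log2 fold changes of -1.28 and -0.83 (limma adjusted p = 0.139 and 0.174). The list of ERK feedback genes and ETS factors, which ERK signalling induces, had 0 of 17 called, 12 below and 3 above without overlap, and a median of -0.25. Its smallest p belonged to PHLDA1 (-0.46), then DUSP5 (-0.54), IER3 (-0.42) and DUSP6 (-0.54), all with limma adjusted p of at least 0.31. The list of EGFR family genes and growth factor ligands left out EGFR itself and HBEGF. Of its 20 tested members none passed, 5 lay above and 7 below, near the shares over all genes tested, and the median was 0.02. Those with the smallest p were TGFA (142 and 124 against 50.4 and 62.2; -1.23, limma adjusted p = 0.0558) and AREG (91.9 and 106 against 49.5 and 32.1; -1.28, limma adjusted p = 0.101), both ligands of the EGF receptor. PDGFA (-0.59) and the receptor ERBB2 (0.44) followed. TGFA and AREG were the 2 of this list that passed with the dish libraries alone, both lower. Outside the list, EGFR (-0.52) and HBEGF also passed as lower with the dish libraries alone.

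Adhesion and cytoskeletal targets lay below the controls more often than above them, with 0 calls in limma over all 8 libraries. YAP and TAZ are transcription regulators that respond to cell shape and contact. Of 25 of their targets 14 lay below without overlap and 2 above, with a median of -0.30, where 25.6% of all genes tested lay below and 25.7% above. CTGF, a secreted matrix protein, had 8065 and 8092 against 5233 and 5053 (-0.65, limma adjusted p = 0.0982). NT5E (-0.57), ANKRD1 (-1.08) and ASAP1 (-0.63) followed. With the dish libraries alone 5 of the 25 passed, all lower, where 4.04% of all genes tested passed as lower and 2.29% as higher. Genes driven by SRF and its actin-sensing partner MRTF numbered 26, of which 10 lay below and 2 above, with a median of -0.14. FHL2, a LIM-domain protein, had 2242 and 2395 against 1185 and 1218 (-0.95, limma adjusted p = 0.0538). FHL1 (-0.81), SRF itself (-0.51) and TPM2 (-0.80) were next. With the dish libraries alone 4 members passed, all lower (4.04% of all genes tested). Integrins and adhesion complex genes had 11 of 19 below and 2 above, with a median of -0.30. With the dish libraries alone 4 of them passed as lower (4.04% of all genes tested). Their smallest p were those of ITGA10 (-0.72), FERMT1 (-0.62), LIMS1 (-0.67) and PXN (-0.35).

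L1CAM's own relatives and partners gave no call beside L1CAM. Of 24 tested, L1CAM was the 1 gene that passed, and the median was -0.06. Without overlap 6 lay above and 7 below, near the shares over all genes tested (25.7% and 25.6%). CNTN1, a neural adhesion molecule that binds L1CAM, had 39.1 and 50.9 against 164 and 139 (1.74 ± 0.28, limma adjusted p = 0.0532), and passed in the dish libraries alone. The L1 family members NRCAM and NFASC had log2 fold changes of -0.28 and 0.02. Among ankyrins and spectrins the values were 0.53 for ANK2, 0.32 for ANK3, -0.41 for SPTBN1 and -0.14 for SPTAN1. Membrane linkers and sorting partners ranged from -0.16 to 0.25, with EZR at -0.16, RDX at 0.14, MSN at 0.25, SDCBP at -0.16, RANBP9 at -0.15, AP2M1 at -0.07 and DLG1 at -0.06. The integrin and kinase partners were ITGA5 at -0.34, ITGB1 at 0.18, ITGAV at 0.14 and ILK at -0.13. The receptors EGFR, FGFR1 and NRP1 had -0.52, 0.14 and 0.06, and the proteases ADAM10 and ADAM17 had -0.01 and -0.07. Apart from L1CAM and CNTN1, none of these had a limma adjusted p below 0.654, and the dish libraries alone added ANK2 as higher and EGFR as lower.

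Matrix genes lay mostly the other way from integrins in the dish. Of 23 laminins, collagens and matrix genes 1 passed, LAMB3, which fell, while the median was 0.34. Without overlap 10 lay above the controls and 3 below, where 25.7% and 25.6% of all genes tested did so. On the slice the same list had a median of 0.02. NTN4, which also fell, was counted among the axon guidance genes. COL5A1 (8.80 and 9.43 against 45.8 and 24.1), a fibrillar collagen, had 1.76 on the log2 scale (limma adjusted p = 0.108). COL4A2, a basement membrane collagen, had 195 and 277 against 685 and 399 (1.17, limma adjusted p = 0.152). Fibronectin (FN1) had 145 and 213 against 540 and 312 (1.22, limma adjusted p = 0.258). In these 3 replicate 1 of shL1CAM_dish was the highest library. With the dish libraries alone 5 matrix genes passed as higher and 2 as lower (2.29% and 4.04% of all genes tested). The fibroblast markers PDGFRA (16.6 and 11.3 against 45.8 and 37.1) and COL3A1 were also higher in both knockdown libraries, with DCN and LUM at 0 to 1.89, and their part in the matrix values was not tested. In the plasminogen system 0 of 10 passed. Urokinase (PLAU) had 72.4 and 80.2 against 206 and 157 (1.23, limma adjusted p = 0.0546) and its receptor PLAUR -0.58.

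Among epithelial and mesenchymal genes 1 passed the test. For the counts without overlap below, 25.7% of all genes tested lay above the controls and 25.6% below. Of 20 junction genes and keratins none passed, 10 lay below and 4 above, the median was -0.20, and the smallest p was that of the desmosomal gene PKP2 (487 and 482 against 298 and 271; -0.77, limma adjusted p = 0.139). CLDN7 (-0.50), KRT18 (-0.48) and OCLN (-0.48) came next. Of 10 mesenchymal markers and regulators 1 rose, CDH2, while 4 lay above and 6 below, and the median was also -0.20. ZEB2 (2.03, from 11.7 and 6.60 to 38.5 and 40.1), SNAI2 (1.40) and SNAI1 (-0.52), transcription factors known from epithelial-mesenchymal transition, did not pass (limma adjusted p = 0.134, 0.162 and 0.459). Of 9 S100 genes, S100A16 was the 1 that rose, 3 lay above and 4 below, and S100A9 had 254 and 447 against 186 and 103 (-1.28, limma adjusted p = 0.255).

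Proliferation genes were mostly a little higher without passing the test. Of 40 G1/S genes 34 had a positive log2 fold change, and the median was 0.17. Without overlap 22 of the 40 lay above and 0 below, where 25.7% and 25.6% of all genes tested did so. The smallest p of the G1/S list were those of the replication factors MCM3 (0.37), CHAF1A (0.32), MCM2 (0.27) and RRM1 (0.25), with limma adjusted p from 0.414. Of 46 G2/M genes 41 were positive, 28 lay above and 3 below, and the median was 0.18. TOP2A, the topoisomerase of mitosis, had 16877 and 18033 against 28765 and 24369 (0.60, limma adjusted p = 0.452), AURKB 0.46 and KIF20A 0.37. KIF4A, a chromosome motor, lay the other way with 1009 and 955 against 622 and 571 (-0.72, limma adjusted p = 0.086). Neither list had a call over 8 libraries. With the dish libraries alone the G1/S list had 0 and the G2/M list 3 higher and 1 lower (2.29% and 4.04% of all genes tested). CDK inhibitors did not lie on one side: beside the fall of CDKN1A, CDKN2B had -0.56, CDKN2C 0.60 and CDKN1B 0.58 (limma adjusted p = 0.246, 0.301 and 0.327). CDKN1A is also the 1 called member of 17 p53 targets, whose median was -0.08. GDF15 (-1.25), SESN1 (-0.76) and C12orf5 (-0.38) did not pass.

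Genes of cholesterol synthesis and uptake lay mostly above the controls in the dish. Of 24 tested 22 had a positive log2 fold change, 18 lay above without overlap and 1 below (25.7% and 25.6% of all genes tested), the median was 0.29, and 0 passed over 8 libraries. DHCR7, which completes cholesterol, had 1181 and 1292 against 2070 and 1646 (0.58, limma adjusted p = 0.226). INSIG1 (0.73), MVK (0.67) and LSS (0.48) followed, and with the dish libraries alone 5 passed, all higher (2.29% of all genes tested). On the slice the same list had a median of -0.00. Of 24 interferon-response genes none passed and the median was 0.15, with IFIT1 at 56.7 and 73.6 against 164 and 157 (1.30, limma adjusted p = 0.0538), IFI44 at 0.57, ISG20 at -0.79 and IFI44L at 0.57. The small RNA machinery, through which shRNAs act, had 0 of 14 called and a median of -0.03, with the Argonaute gene EIF2C2 at 1295 and 988 against 661 and 801 (-0.64, limma adjusted p = 0.495).

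Other pathways had single members at the edge. In the hypoxia response NDRG1, a stress-response gene, fell from 1323 and 1383 to 706 and 481 (-1.21 ± 0.19, limma adjusted p = 0.0444), and DDIT4, an inhibitor of mTOR signalling, had 1881 and 2252 against 4625 and 3355 (0.94, limma adjusted p = 0.0742). These 2 went in opposite directions, and the median over 16 genes was 0.06. In the Notch pathway 0 of 16 passed, 8 lay below and 1 above without overlap (25.6% and 25.7% of all genes tested), and the median was -0.30. The ligand JAG2 had 2859 and 2564 against 1641 and 1445 (-0.81, limma adjusted p = 0.0538). Among 14 Wnt target and feedback genes 0 passed, 6 lay below and 3 above without overlap, and the median was -0.34. WNT5A was at 0.98, LEF1 at 1.24 and DKK1 at -0.53. With the dish libraries alone 2 of the 14 passed as higher and 1 as lower (2.29% and 4.04% of all genes tested). CXXC4 and WNT7A, both called and described above, were not in that list. Among 17 TGF-beta and BMP genes 0 passed over 8 libraries, 6 lay above and 6 below without overlap, and the median was -0.07. BMP2 was at -1.54, TGFBI at 0.58 and ID1 at 0.67. With the dish libraries alone 4 of the 17 passed as higher and 1 as lower (2.29% and 4.04% of all genes tested). NTN4 was the 1 call among 22 axon guidance genes, whose median was 0.10. Of 8 mediators of brain metastasis 0 passed, 4 lay above and 1 below without overlap, and the median was 0.17. The 1 below was the protocadherin PCDH7, with 830 and 829 against 306 and 274 (-1.52, limma adjusted p = 0.0538). The highest member had 1.06. With the dish libraries alone 1 passed as higher and 1 as lower (2.29% and 4.04% of all genes tested). The 18 further lists, with 362 tested members that include ribosomal proteins, chaperones and mitochondrial respiration, had 0 calls and medians of -0.52 to 0.18. The median of -0.52 came from secretory airway and alveolar genes, of which 2 were tested. With the dish libraries alone 6 of the 362 passed as higher and 10 as lower (2.29% and 4.04% of all genes tested).

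The slice libraries hold the same measure, and the contrasts in dish and slice share no library. The labels do not state separate transductions or cultures, and the slice replicates entered the spread by which the 40 genes were called. Of the 40 dish calls 40 had the same sign on the slice and 40 lay beyond both slice controls in the dish direction, where 43.0% of all genes tested did, and 28 also passed there (0.646% of all genes tested passed on the slice). L1CAM had a log2 fold change of -2.65 on the slice, IL18 -2.39, PLLP -2.65, UNC13A -2.57, CDKN1A -1.31 and CDH2 2.16. IL8 had 3214 and 2962 against 2510 and 2326 there, a log2 fold change of -0.35 against -1.11 in the dish, and EGR1 had -0.60 against -0.97. The median size of the 40 changes was 1.56 in the dish and 1.36 on the slice, smaller on the slice in 26 of 40, in genes chosen for their dish change. Of the 824 genes that passed in the dish libraries alone, 799 had the same sign, 698 (84.7%) lay beyond the slice controls in the dish direction and 4 in the other. Their median size was 0.671 in the dish and 0.687 on the slice, smaller on the slice in 435. The test of a difference between the knockdown changes in dish and slice called 0 of 13010 genes in limma (0%), with 162 at an unadjusted p under 0.05, and 0 in edgeR's quasi-likelihood test. Leaving out 1 library moved that count to between 0 and 4136, the latter without replicate 1 of shL1CAM_slice.

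**Figure D3:**
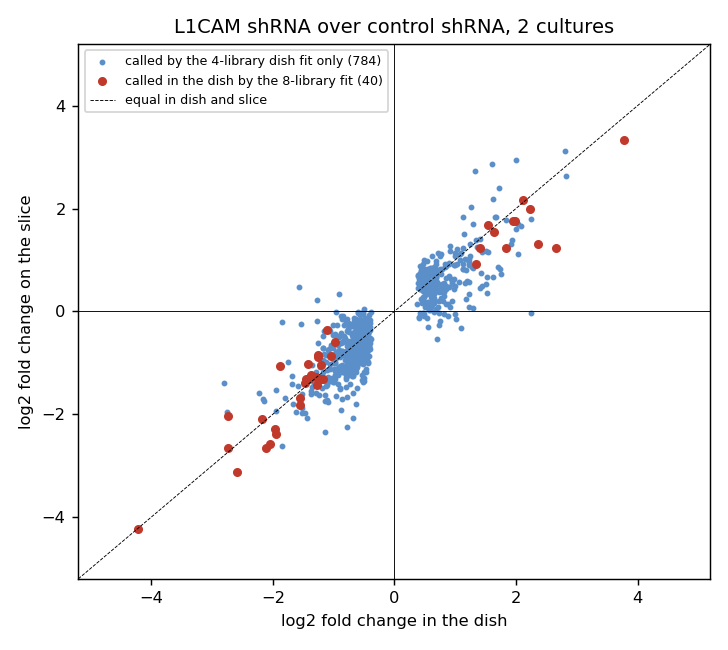
Log2 fold changes of L1CAM over control shRNA in the dish (horizontal) and on the slice (vertical) for genes called in the dish, red by the fit of 8 libraries and blue by the 4 dish libraries alone, with a dashed line where both are equal. All 40 red points lie at the lower left or the upper right, with the same sign in both cultures.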

How the data were processed

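The deposited table gives a normalized signal per gene symbol for the 8 libraries, and 0 columns were unused. FastQC 0.11.3, HTSeq 0.5.4, DESeq2 and hg19 (GRCh37) are named in the submitters' processing notes; neither aligner nor annotation is given in the sources used here. The authors divided read counts by 1 size factor per library: 100% of values were whole multiples of a step within 1e-06, so reads were recovered. Per the labels' protocols, a poly-A kit that does not mark the strand was used, so overlapping and antisense genes cannot be told apart. Replicates are labelled biological, but separate cultures are not stated, so the p-values cover only how these samples vary, which may be technical.

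Values were analysed as log2(normalized count + 1), on which scale all fold changes are given. Genes whose mean over 8 libraries was 10 or more (13010 of 23368) entered 1 limma 3.58.1 fit (R 4.3.3) of 4 group means with an intensity trend, two-sided, Benjamini-Hochberg adjusted over all genes. Members and lists were chosen with earlier results of these data known. Named genes are L1CAM, RPL10A, up to 12 rises and 12 falls past the threshold with a dish mean of at least 50 and no overlap, genes at 3 reads or fewer in a group, 4 members with the smallest p per described list, and all L1CAM partners tested; 1 gene that this rule covers is not reported here. edgeR 4.0.16 and DESeq2 1.42.0 on recovered reads, other pseudocounts, filters and scalings, a replicate block, the 4 dish libraries, and each library left out were alternatives. Library weights and the fit lacking replicate 2 of shL1CAM_slice were chosen after seeing the data. The fit was also run on simulated data whose spread was estimated without the shL1CAM_slice libraries. That run therefore does not cover the wider spread of that group.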

Additional observations from a re-analysis of the deposited data

How the results depend on the processing

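The number of called genes depended on how the spread was estimated, while the 40 calls kept their sign in every alternative in which they were tested. Against 40 calls (12 higher, 28 lower), limma called 62 (22 and 40) with a pseudocount of 10, 16 (1 and 15) with no filter, 14 (1 and 13) for means of 50 or more, 824 (298 and 526) with the 4 dish libraries and 1011 with library weights. edgeR called 77 (25 and 52) and DESeq2 184 (61 and 123). Upper-quartile scaling called 48 (19 and 29), with the median of all genes at 0.04. Leaving out 1 library gave 0 to 1437 calls (0 to 587 higher, 0 to 853 lower): 0 without any 1 dish library, 8 without either shControl_slice library, and 1436 or 1437 without replicate 1 or 2 of shL1CAM_slice. Dropping a dish library leaves 1 sample in that group, assumed to vary like the others. L1CAM then lay between -2.37 and -1.86, with limma adjusted p from 0.104 to 0.191. The calls repeated on the slice numbered 61 with a pseudocount of 10, 14 for means of 50 or more, 698 with the dish libraries alone, and 0 to 1358 with 1 library left out, and the interaction had 0 to 4136. The cause was not tested beyond those constructions. A replicate block called 46, of which 36 were among the 40. The correlation of same-numbered deviations was -0.38 between the dish groups and -0.05 to 0.19 in the other pairs of groups. The labels do not say whether libraries with equal numbers share a batch, and the source of these correlations was not tested. ADAM10, at -0.01, read 0.026 with upper-quartile scaling and 0.0048 in DESeq2. With 1 library left out, signs changed for ADAM10 (-0.18 to 0.16), ADAM17 (-0.15 to 0.018), NFASC (-0.29 to 0.34), NRCAM (-0.70 to 0.14), ANK3 (-0.14 to 0.77), NRP1 (-0.082 to 0.20), SPTAN1 (-0.28 to 0.0050) and EZR (-0.32 to 0.011). The 10% of genes with the shortest transcripts had a median of 0.06 in the dish contrast and the 10% with the longest -0.07. Genes near 3 reads are limited by depth.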

Other observations

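Further genes passed in the 4 dish libraries alone and not over 8 libraries. They were chosen after their values were seen, as large changes with a mean of at least 50 in the dish. Among the decreases, the cannabinoid receptor CNR1 had normalized counts of 85.1 and 94.3 in the controls and 23.8 and 16.1 with L1CAM shRNA (log2 fold change -2.14, limma adjusted p = 0.139 over 8 libraries and 0.000283 in the dish libraries). The histone deacetylase HDAC9 had 381 and 373 against 118 and 145 (-1.52), and the actin-binding protein AFAP1 had 587 and 577 against 196 and 170 (-1.67), each with limma adjusted p = 0.0538 over 8 libraries. The potassium channel KCNJ12 (-1.43) and the ligand WNT9A (-1.79) were also lower.

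Among the increases were adhesion and neural genes. The nectin PVRL3 had 30.3 and 33.0 against 161 and 148 (2.25, limma adjusted p = 0.0538 over 8 libraries). ID4, an inhibitor of basic helix-loop-helix factors, had 27.4 and 7.54 against 101 and 117 (2.82, limma adjusted p = 0.0705). The amino acid transporter SLC6A15 had 66.5 and 95.3 against 255 and 240 (1.62), the unconventional myosin MYO10 183 and 134 against 426 and 468 (1.51), and the calcium channel subunit CACNA2D1 90.0 and 88.7 against 251 and 264 (1.52). CACNA2D1 had a log2 fold change of 0.36 on the slice, where its 2 knockdown libraries read 225 and 30.9.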
